A study of Bos taurus with 30 samples.

Results

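The step from the 4-cell to the 8-cell stage was followed here in bovine embryos whose transcription was blocked, called transcription blocked embryos (TBE). The libraries were chosen by their labels, stage 4-cell or 8-cell with inhibited transcription, which gave 6 of the 30 libraries of the series, 3 for each stage. Untreated 4-cell and 8-cell embryos, with 3 libraries each, served as control embryos, and those labelled 8-cell defined what a normal 8-cell site is. Lists of GV oocytes, 2-cell embryos, morula, inner cell mass (ICM) and embryonic stem cells (ESC) were used to ask where else a site had been open. All embryos were produced in vitro from matured and fertilised Bos taurus oocytes, and each library came from a pool of embryos with at least 500 cells. The 3 libraries of a group came from separate oocyte collections. TBE carried α-amanitin at 50 µg/ml in the culture medium from day 1, and were collected at 2 days post-insemination (4-cell) or 3 days (8-cell), as were the controls of the same stage. Libraries of 4-cell embryos were amplified for 13 PCR cycles and those of 8-cell embryos for 11, in TBE and control alike, so stage and cycle number cannot be told apart.

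In early cleavage the embryo lives on RNA and proteins stored in the oocyte, and in cattle the major wave of embryonic genome activation falls around the 8-cell stage. α-Amanitin binds RNA polymerase II and stops transcript elongation, so a blocked embryo is taken to divide largely with maternal products. Remaining transcription was not measured here. ATAC-seq uses a transposase that inserts into DNA not shielded by nucleosomes, and clusters of insertions above the local background are called as peaks of open chromatin.

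The length of the lists grew strongly over this step in TBE. Peaks covered 13.9, 1.46 and 1.10 Mb in 4-cell TBE replicates 1 to 3, and 62.4, 194 and 24.5 Mb in 8-cell TBE. Every 8-cell TBE library lay above every 4-cell TBE library, with a ratio of geometric means of 23.7 (exact permutation test, two-sided, p = 0.1). The ratio was 13.9 without 8-cell TBE replicate 2, 52.7 without 4-cell TBE replicate 1, 39.1 without 8-cell TBE replicate 3 and 14.8 without 4-cell TBE replicate 3. It was 10.8 at a fold enrichment of 3 or more and 37.0 at a −log10 q of 3 or more. For equal numbers of top peaks it was 2.09. In numbers of peaks the 8-cell TBE lists, with 90890, 247513 and 50090 peaks, exceeded those of 4-cell TBE, with 32260, 4166 and 3094, by 13.9 times (exact permutation test, p = 0.1). That ratio was 8.98 without 4-cell TBE replicate 3, 9.04 without 8-cell TBE replicate 2 and 29 without 4-cell TBE replicate 1. At a fold enrichment of 3 or more it was 6.60, and at a −log10 q of 3 or more 22.9. An exact permutation test of 3 libraries against 3 cannot go below p = 0.1, so no such comparison in the text can pass 0.05, and non-overlap of the groups is the most it can show. Control embryos covered 7.25 times as much at the 8-cell as at the 4-cell stage. The difference between the 2 steps was 1.71 on the log2 scale. One at least as large often arose when TBE and control were relabelled within each stage (exact permutation test over 400 arrangements, two-sided, p = 0.315). The difference was 0.939 without 8-cell TBE replicate 2, 2.86 without 4-cell TBE replicate 1 and 0.458 for equal numbers of top peaks.

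Depth moved with stage in these lists. The background level, the number of tags that the peak caller expected in a window, was 0.324, 0.134 and 0.157 in 4-cell TBE and 1.24, 3.82 and 0.347 in 8-cell TBE, and it is proportional to the number of tags of a library. The 4-cell control libraries had levels of 0.494, 0.453 and 0.223 and the 8-cell control libraries 1.31, 0.806 and 0.808. A site absent from a 4-cell TBE list was therefore not detected at that depth, which does not show that it was closed. The part of depth in the growth of the lists was checked only through the pair nearest in level, 4-cell TBE replicate 1 and 8-cell TBE replicate 3. There the covered length rose from 13.9 to 24.5 Mb, 1.76-fold. The list of 8-cell TBE replicate 3 carries a run label in its peak names that the other lists lack, so it may hold part of that library's reads.

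**Figure D1:**
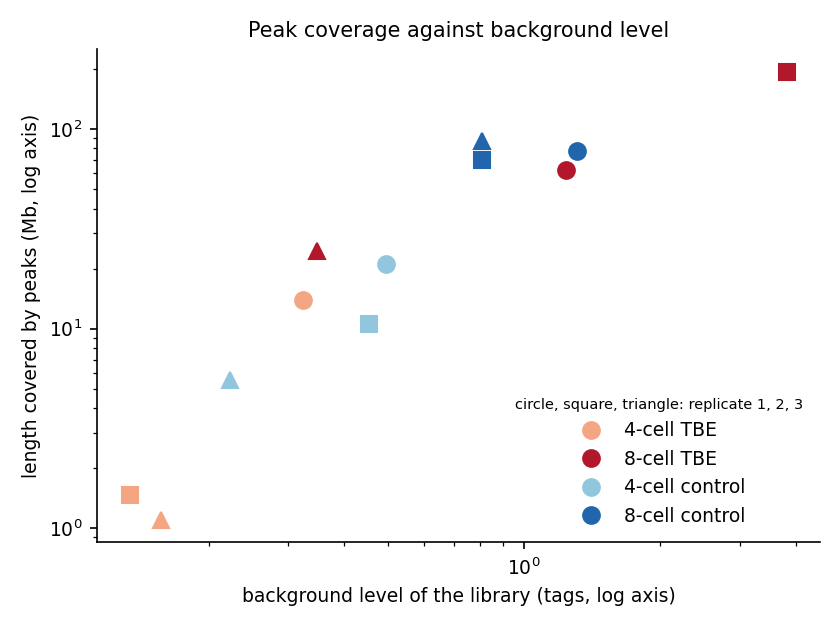
Length covered by peaks (Mb, log axis) against the background level (tags, log axis) of each of the 12 libraries, where colour gives stage and treatment and the symbol gives the replicate number. The 4-cell TBE libraries sit at 1.10 to 13.9 Mb with levels up to 0.324, and the 8-cell TBE libraries spread from 24.5 Mb at a level of 0.347 to 194 Mb at 3.82.

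Between that pair, peaks shared and not shared were compared. Of the 50090 peaks of 8-cell TBE replicate 3, 34564 (69.0%) shared no base with a peak of 4-cell TBE replicate 1, and in the other direction 16711 of 32260 (51.8%) of the 4-cell peaks shared no base with the 8-cell list. Libraries of 1 stage differed by as much, since 27.9% to 94.0% of the peaks of a 4-cell TBE library and 17.0% to 83.5% of those of an 8-cell TBE library had no base in another replicate. The pair thus does not separate a change of sites with stage from the spread between libraries. The peaks new in the 8-cell library were at normal 8-cell regions in 13171 cases, or 38.1% (exact Clopper-Pearson 95% interval 37.6 to 38.6, which covers counting error only, as do all intervals here). Peaks of that library that were shared with the 4-cell library were at normal 8-cell regions in 83.8%. Peaks found in the 4-cell library alone were at normal 8-cell regions in 23.7% and at normal 4-cell regions in 6.67%.

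Regions were built from peaks present in at least 2 of the 3 replicates of a group. 8-cell TBE had 82048 regions and 4-cell TBE 3961. Of the 8-cell TBE regions 78189 shared no base with a 4-cell TBE region and are called opened, 3859 were kept, and 95 regions of 4-cell TBE were lost. The opened regions were 95.2% of the 82141 merged regions of the 2 stages, so opened describes nearly every 8-cell TBE region, and the lost ones were 0.116%. Within a single 8-cell TBE library the newly opened peaks numbered 87043, 243609 and 46454 in replicates 1 to 3, which is 95.8%, 98.4% and 92.7% of the list.

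The number of lost regions was 7, 33 and 67 without 4-cell TBE replicates 1, 2 and 3. It was 329, 352 and 120 without 8-cell TBE replicates 1, 2 and 3. A region of the shortened group then needed a peak in both libraries left. That rule by itself tends to lower the first counts and raise the others, so they do not show that the 95 rest on a given library. Not one of the 95 lost regions had a peak in all 3 4-cell TBE libraries and in no 8-cell TBE library. A single 8-cell TBE library still held a peak at 68 of them, replicate 2 for 50 of these, and 17 lay on unplaced scaffolds. Of 4-cell TBE peaks, 61.3%, 77.8% and 48.2% of those in replicate 1 met a peak in 8-cell TBE replicates 1, 2 and 3, and the shares for replicate 2 were 83.5%, 91.1% and 75.7%. For replicate 3 they were 76.4%, 86.0% and 66.7%. The deepest 8-cell library, replicate 2, held the most of each 4-cell list.

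The share of opened regions that were sites of normal 8-cell embryos depended on the rule. Of the 78189 opened regions 32911 overlapped a region of 8-cell control embryos, or 42.1% (95% interval 41.7 to 42.4), and 45278 did not. It was 59.9% where peaks needed a −log10 q of 3 or more, 57.6% with a fold enrichment of at least 3 and 59.6% with regions from all 3 replicates. It was 15.2% with the top 3094 peaks of each list, 27.9% with an overlap of at least 50% and 35.2% where opened meant no 4-cell region of either treatment. The limits on q, fold enrichment, list length and replicates applied to the control lists too, so normal regions were rebuilt under each. The 15.2% is thus a share against regions from the top 3094 peaks of each control list. The share over all 8-cell TBE regions was 44.5%. The opened regions at normal sites were wider, with a median of 1167 bp against 897 bp. A peak was present in all 3 8-cell control libraries at 24383 opened regions (31.2%), in 2 at 7961 (10.2%), in 1 at 10997 (14.1%) and in none at 34848 (44.6%).

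How often an opened region was normal went with how many TBE libraries held it. The 29572 opened regions with peaks in all 3 8-cell TBE libraries were normal in 67.6% of cases, and the 48617 with peaks in 2 libraries in 26.6%. Most of the latter, 39800, came from replicates 1 and 2, of which 26.7% were normal. The 7739 from replicates 2 and 3 were normal in 25.1% and the 1078 from replicates 1 and 3 in 32.0%. Without replicate 2 the number of opened regions was 30299 and 66.1% of them were normal, and without replicate 1 the values were 37257 and 58.7%. A region then needed a peak in both libraries left, and the regions resting on replicates 1 and 2 alone drop out in either case.

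Opened regions could still hold a peak of a single 4-cell TBE library. At 17459 opened regions at least 1 4-cell TBE library held a peak, mostly replicate 1 with 16500, against 587 for replicate 2 and 487 for replicate 3. The other 60730 (77.7%) had no peak in any 4-cell TBE library, and 33.6% of these were normal. A stricter set took the 17533 regions with a peak in all 3 8-cell TBE and in no 4-cell TBE library, which is 6.32% of the 277213 regions covered in any of the 6 libraries. The reverse rule, a peak in all 3 4-cell TBE and in no 8-cell TBE library, was met by 0 regions (0%). Of the strict set 56.4% were normal 8-cell regions, and 7481 had a peak in all 3 control libraries, 2354 in 2, 2441 in 1 and 5257 in none.

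To compare libraries as replicates, the newly opened peaks of each 8-cell TBE library were set beside those of each 8-cell control library, which was held out from the normal regions it was measured against. Normal regions here needed peaks in both of the other 2 control libraries, and a TBE library was measured against each of the 3 such pairs and averaged. The share at these regions was 31.0%, 16.5% and 42.3% in TBE replicates 1 to 3 and 62.0%, 60.5% and 48.8% in control replicates 1 to 3. All TBE values lay below all control values, at 29.9% ± 12.9 against 57.1% ± 7.25 (means with SD, n = 3 libraries per group, two-sided exact permutation test, p = 0.1). Where peaks needed a −log10 q of 3 or more, the difference shrank from -27.1 to -15.6 points and the groups overlapped (exact permutation test, p = 0.3). Against regions from at least 2 of all 3 control libraries, the TBE shares were 36.9%, 20.6% and 48.9%. The 2 libraries numbered 1 had similar background levels, 1.24 in TBE and 1.31 in control, and their shares were 31.0% and 62.0%. When new was defined against the 4-cell regions of both TBE and control, the means were 23.3% ± 9.42 and 57.0% ± 7.26, again without overlap (n = 3 each, exact permutation test, p = 0.1).

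Peaks kept from the 4-cell stage behaved otherwise. They were at normal 8-cell regions in 91.7%, 90.9% and 93.1% of cases in 8-cell TBE, a mean of 91.9% ± 1.09 (SD, n = 3), and in 92.3% ± 1.77 in the held-out control libraries. The share of new peaks was lower than that of kept peaks in 3 of 3 TBE libraries, with a mean difference of -62.0 points (exact sign-flip permutation test, two-sided, p = 0.25, the smallest 3 libraries allow). Kept peaks had to meet a region of at least 2 4-cell libraries, which already selects sites found repeatedly, so the difference is a description. The direction was the same in held-out control, with means of 57.1% for new and 92.3% for kept peaks. In TBE the difference was -25.2 points with the top 3094 peaks of each list and -43.9 where peaks needed a −log10 q of 3 or more.

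Since the share falls as a list grows longer, equal numbers of top peaks by p-value were also taken from each library. Among the top 1000 peaks the new ones were at normal regions in 93.6%, 84.7% and 95.2% in TBE replicates 1 to 3, over 364, 410 and 410 new peaks. Among the top 10000 the shares were 79.4%, 72.3% and 77.1%, and among the top 50000 they were 45.7%, 40.8% and 42.3%. Held-out control libraries averaged 100% at the top 1000, 99.9% at the top 10000 and 89.7% at the top 50000. The difference, TBE minus control, widened from -8.83 points at 1000 peaks to -46.8 points at 50000, and no TBE library overlapped the control libraries at any of the 5 list lengths (exact permutation tests, p = 0.1 each). Equal numbers are unequal parts of the lists. The top 50000 is nearly all of TBE replicate 3, with 50090 peaks. It is a smaller part of TBE replicates 1 and 2, with 90890 and 247513, and of control, with 125253 to 156569. The part of list length in the widening was not tested. The small difference at the top includes sites that the shallow 4-cell TBE lists lack, since 85.4%, 73.7% and 81.5% of the new top 1000 peaks in TBE were at normal 4-cell regions. With new defined against the 4-cell regions of both treatments, the difference was -22.1 points at 1000 peaks, over 53, 108 and 76 new peaks in TBE, and -56.7 points at 50000 (exact permutation tests, p = 0.1 each).

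**Figure D2:**
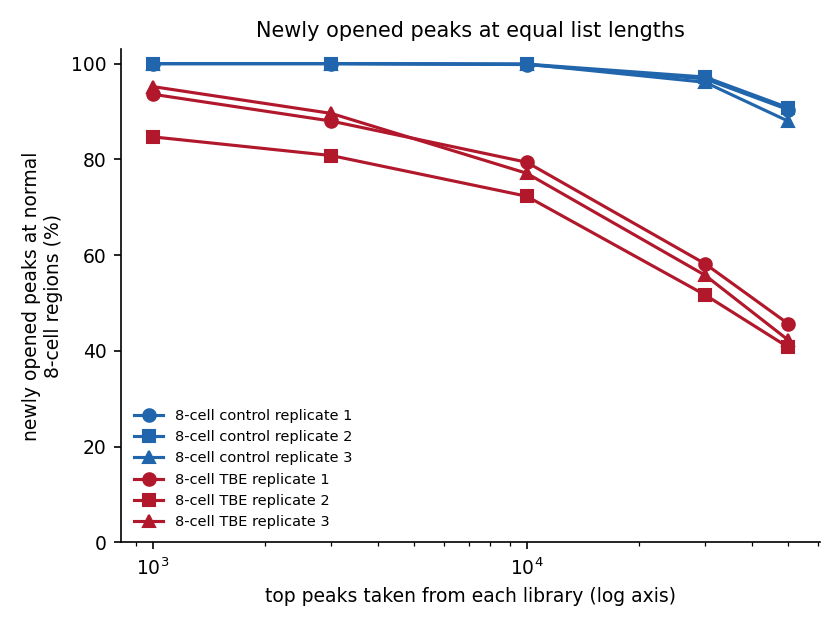
Percent of newly opened peaks at normal 8-cell regions among the top 1000 to 50000 peaks of each 8-cell library (log axis), with 1 line per library. Control lines stay between 88.0% and 100%, and the TBE lines fall from between 84.7% and 95.2% to between 40.8% and 45.7%.

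The same question was asked from the side of the normal embryo. Control embryos gained 107555 regions from the 4-cell to the 8-cell stage. Gained means an 8-cell control region that shared no base with a 4-cell control region. The 4-cell control libraries had lower background levels than those of the 8-cell stage, so a gained site was not shown to be closed at the 4-cell stage. Of these 21.7%, 38.2% and 13.6% held a peak in 8-cell TBE replicates 1 to 3. The share varied little with the height of the site in control embryos. Over 10 classes of equal size, ordered by mean fold enrichment in 8-cell control, it ran from 19.9% to 27.4% in replicate 1, from 35.4% to 46.3% in replicate 2 and from 11.9% to 16.4% in replicate 3. In the highest class, with a median fold enrichment of 6.50, it was 20.5%, 37.5% and 15.0%, beside 27.4%, 46.3% and 13.6% in the lowest class at 3.00. Replicates 1 and 2 had their highest share in the lowest class, and replicate 3 had its highest, 16.4%, in the ninth of the 10 classes. In 4-cell TBE replicate 1 the highest class held a peak at 8.60% of the regions and the lowest at 6.72%. In 4-cell TBE replicates 2 and 3 the shares were 0.688% and 0.456% in the highest class and 0.390% and 0.260% in the lowest.

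**Figure D3:**
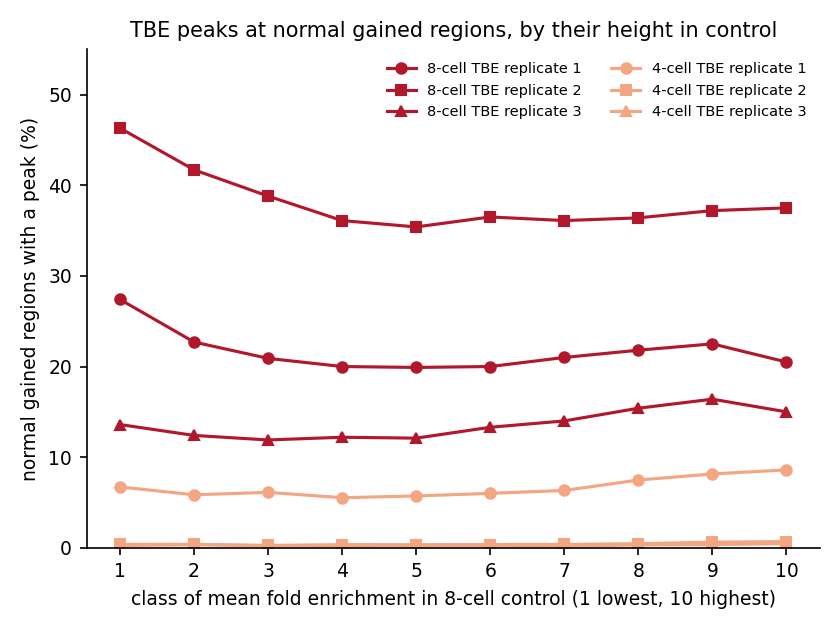
Percent of the regions gained by control embryos from the 4-cell to the 8-cell stage that held a peak in each TBE library, in 10 equal classes of mean fold enrichment in 8-cell control. Each 8-cell TBE library gives a nearly level line, at 35.4% to 46.3% in replicate 2, 19.9% to 27.4% in replicate 1 and 11.9% to 16.4% in replicate 3.

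The normal gained regions were also divided by whether the site was already open in the GV oocyte, the fully grown oocyte before meiosis resumes, and here the TBE shares lay far apart. This split was chosen after the values were seen. Among the 107555, GV oocytes also had a region at 10377 (9.65%). These oocyte regions held a peak in 77.6%, 88.7% and 55.7% of cases in 8-cell TBE replicates 1 to 3, and the other 97178 regions in 15.7%, 32.8% and 9.15%. The heights of the 2 kinds in control embryos were close, with median fold enrichments of 4.12 and 4.05. Oocyte regions were wider, with a median of 903 bp against 570 bp. Width moved with the result, and its part in it was not tested beyond values within width classes. Among regions under 500 bp, with medians of 334 and 319 bp, the shares were 68.9%, 82.6% and 51.0% for oocyte regions and 12.5%, 25.9% and 8.09% for the others. Among regions of 1000 bp or more and under 2000 bp they were 82.2%, 91.6% and 58.5% against 19.7%, 41.5% and 10.7%.

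The gap was far smaller in control libraries. With normal regions taken from the other 2 control libraries each time, held-out control replicates 1 to 3 held a peak at 93.9%, 87.4% and 95.4% of oocyte regions and at 79.9%, 78.3% and 93.1% of the others. Measured against the same regions, 8-cell TBE held a peak at 79.6%, 89.2% and 58.1% of oocyte regions and at 16.0%, 32.6% and 9.54% of the others. Oocyte regions overlapped between the treatments, at 75.6% ± 15.9 in TBE and 92.2% ± 4.27 in control (means with SD, n = 3 libraries per group, two-sided exact permutation test, p = 0.2). The other regions did not overlap, at 19.4% ± 11.9 and 83.8% ± 8.12 (n = 3 each, exact permutation test, p = 0.1). The difference between oocyte and other regions was 56.2 ± 7.51 points in TBE and 8.45 ± 5.83 in control, higher in 3 of 3 TBE libraries than in any control library (exact permutation test, p = 0.1). Held-out control shares were all 78.3% or more, near their ceiling, which limits the gap in points that control libraries can show. In 4-cell TBE replicate 1, whose list is the longest of that stage, 32.0% of oocyte regions and 3.94% of the others already held a peak. In 4-cell TBE replicates 2 and 3 it was 2.45% and 1.42% of oocyte regions, and 0.211% and 0.158% of the others.

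**Figure D4:**
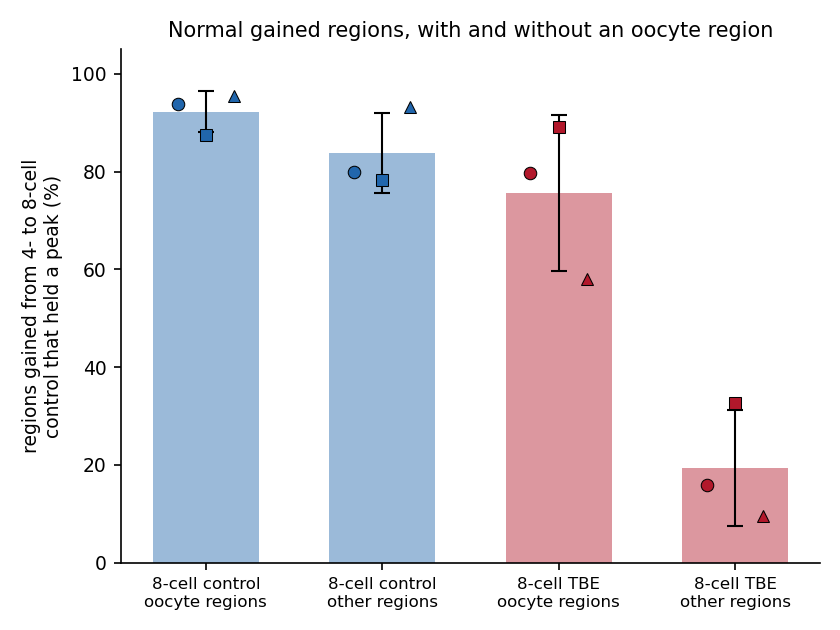
Percent of regions gained by control embryos from the 4-cell to the 8-cell stage that held a peak in held-out 8-cell control libraries (blue) and in 8-cell TBE libraries (red), for regions with and without a region of GV oocytes. Bars are means of 3 libraries, error bars are SD and symbols are replicates 1 (circle), 2 (square) and 3 (triangle), and the bar for other regions in TBE stands at 19.4% beside 75.6% for oocyte regions.

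Seen from the TBE lists, the strongest new peaks were oocyte sites far more often than those of control embryos. New was here defined against the 4-cell regions of both treatments. The top peaks are a larger part of a short list than of a long one. Lists ran from 50090 peaks in TBE replicate 3 to 247513 in TBE replicate 2, with control at 125253 to 156569. Among the top 10000 peaks, 45.6%, 34.9% and 44.0% of the new ones in TBE replicates 1 to 3 overlapped a GV oocyte region, over 3505, 3931 and 4168 new peaks. In 8-cell control replicates 1 to 3 the shares were 20.1%, 15.5% and 18.7%. The means, 41.5% ± 5.82 and 18.1% ± 2.35, did not overlap (n = 3 each, exact permutation test, p = 0.1). At the top 50000 peaks they were 20.3% ± 2.67 and 12.4% ± 0.675, also without overlap (n = 3 each, exact permutation test, p = 0.1). The normal share of these TBE peaks was 65.9%, 57.1% and 65.9% at the top 10000, against a control mean of 99.9%.

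Opened regions were then placed by the control stages at which the same site was open, each counted in the first class it met. Normal 4-cell regions took 10678 (13.7%), which are sites that untreated embryos had opened a stage earlier. Normal 8-cell regions took a further 23741 (30.4%). Of the rest 14748 (18.9%) overlapped a region of morula, ICM or ESC, whether or not GV oocytes had one too, 1837 (2.35%) a region of GV oocytes or 2-cell embryos and of no later stage, and 27185 (34.8%) overlapped no control region. In the strict set these shares were 14.1%, 44.9%, 17.6%, 1.97% and 21.4%. The 3859 kept regions differed, with 89.7% at normal 4-cell regions and 1.14% at no control region. Of the 95 lost regions 38 were normal 4-cell regions and 25 met no control region.

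Taken stage by stage, opened regions overlapped morula regions most often, at 50.0%, then those of 8-cell control at 42.1%, ICM at 36.4%, ESC at 33.8%, GV oocytes at 26.0%, 4-cell control at 13.7% and 2-cell control at 0.169%. The regions of the stages also differ in length, which moved with these shares and whose part in the order was not tested. They covered 126 Mb in morula, 98.6 Mb in 8-cell control, 62.4 Mb in ICM, 54.3 Mb in ESC, 26.0 Mb in GV oocytes and 11.4 Mb in 4-cell control. GV oocyte regions, with 26.0 Mb, met 26.0% of the opened regions, while ESC regions, with 54.3 Mb, met 33.8%. Kept regions overlapped 8-cell control regions in 94.3%, ICM regions in 92.5% and morula regions in 92.4%.

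Single sites are given by position on ARS-UCD1.2, from 1, without the gene they lie in, since no annotation of that build was used here. They were picked by height among the strict set, so the heights are a description. The tallest opened site that was normal lay at chr3:114162677-114163654. Its fold enrichment was 9.51, 5.62 and 11.7 in 8-cell TBE replicates 1 to 3 and 8.38, 8.05 and 12.8 in 8-cell control, and the ranges overlapped. It had no peak in 4-cell TBE, although 4-cell control replicates 1 to 3 had one at 6.38, 5.32 and 5.08, and all 3 GV oocyte libraries had one. The next, at chr18:59796651-59797183, stood at 9.91, 7.10 and 6.72 in 8-cell TBE and at 5.99, 5.61 and 6.27 in 8-cell control, above each control value in every TBE library. It had a peak in all 3 GV oocyte libraries, in 1 of 3 4-cell control libraries and in 1 2-cell TBE library.

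A site at chr4:114741534-114741918 was also higher in each TBE library, at 8.11, 6.12 and 8.82, than in 8-cell control at 4.84, 4.09 and 4.30. In 4-cell control the site stood at 7.44, 4.49 and 5.99, and no GV oocyte library had a peak there. A single 2-cell TBE library held a peak at the site. A site at chr2:31807175-31807550 had 8.08, 7.01 and 7.11 in 8-cell TBE and 8.76, 6.74 and 7.92 in 8-cell control, with overlap. It too was without a peak in GV oocytes, and it had 1 in a single 4-cell control library. Each of the 10 tallest normal sites had a peak in at least 1 4-cell control library, and 7 of the 10 in at least 2 GV oocyte libraries. Several of them also had a peak in at least 1 2-cell TBE library, so they were not shown to open only after the 4-cell stage. These 10 do not stand for the strict set. Of all its 17533 regions, normal or not, 14.1% overlapped a 4-cell control region and 31.5% a GV oocyte region. Such regions needed peaks in at least 2 libraries, for 4-cell control a stricter rule than the 1 library asked of the 10 sites.

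The tallest opened sites with no peak in any 8-cell control library were lower. The first, at chr8:48186551-48186942, had 7.60, 6.88 and 6.67 in 8-cell TBE, a mean of 7.05 ± 0.488 (SD, n = 3). It was open in 4-cell control, at 5.90, 4.67 and 4.05, and had no peak in 8-cell control, morula, ICM or GV oocytes. The site at chr14:79419190-79419525 was similar, with 6.84, 5.94 and 8.32 in 8-cell TBE and 5.65, 4.56 and 5.37 in 4-cell control. Both are sites that control embryos had open at the 4-cell stage and that were not detected in their 8-cell lists. The site at chr10:79717256-79717610 had 6.86, 6.29 and 7.96 in 8-cell TBE and no peak in any other library of the series. A further one, at chr15:36321586-36322033, with 6.94, 6.49 and 7.51, likewise had no peak elsewhere.

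The 5257 strict regions with no 8-cell control peak were lower in each TBE library than the 7481 with a peak in all 3, and narrower. Their median fold enrichment was 3.47, 2.77 and 3.63 in 8-cell TBE replicates 1 to 3 against 3.79, 2.87 and 4.10 for the latter. Their median width was 941 bp against 1231 bp. Of these regions 21.5% overlapped a morula region, 18.5% one of ESC, 14.0% one of ICM, 12.3% one of GV oocytes and 4.64% one of 4-cell control. No control library of the 21 had a peak at 1364 of them (25.9%).

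The opened peaks were not spread over the chromosomes as in control embryos. On 9 of the 29 autosomes and X, the share of new peaks was higher in every 8-cell TBE than in every 8-cell control library (30.0% of the 30), and on 8 it was lower in every TBE library (26.7%). Chromosome 27 held 2.56%, 2.21% and 2.18% of the new peaks in TBE and 1.54%, 1.66% and 1.61% in control. Chromosome 24 held 3.56%, 2.87% and 3.01% in TBE and 2.28%, 2.30% and 2.22% in control. Chromosome X was among those lower in TBE, at 1.94%, 2.67% and 2.03% against 3.20%, 2.86% and 3.01%. The share of opened regions that were normal ran from 31.6% on chromosome 12, 31.8% on 27 and 32.6% on 24 to 51.3% on X and 52.3% on 18.

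New peaks were then placed by their distance from the far end of the autosomes, away from the start of the coordinates. This window was chosen after the values were seen, and ends were set at the last peak of any list. The last 5 Mb of the 29 autosomes make up 5.83% of their length. They held 14.5%, 9.79% and 11.6% of the new peaks in 8-cell TBE replicates 1 to 3 and 5.72%, 5.23% and 5.06% in control. The means of 11.9% ± 2.36 and 5.34% ± 0.345 did not overlap (n = 3 libraries per group, two-sided exact permutation test, p = 0.1). New peaks at normal regions showed it too, at 9.77%, 7.94% and 9.71% in TBE against 4.74% in each control library. Those not at normal regions were at 16.6%, 10.2% and 13.0% in TBE and 7.34%, 5.97% and 5.37% in control. Within each TBE library new peaks of the last 5 Mb were normal less often than elsewhere, at 20.8% against 32.5%, 13.4% against 16.9% and 35.4% against 43.1%. The same held in each control library, at 51.6% against 63.0%, 54.9% against 60.8% and 45.7% against 49.0%.

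Opened regions numbered 71.3 per Mb in the last Mb, 85.6 between 1 and 2 Mb from the end and 71.8 between 2 and 5 Mb, and fell to 25.1 per Mb beyond 40 Mb. All normal 8-cell regions together stayed between 42.5 and 49.3 per Mb over the same distances. In the strict set without an 8-cell control peak 1093 regions (21.3% of those on autosomes) were in the last 5 Mb, beside 10.3% of those with a peak in all 3 control libraries.

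**Figure D5:**
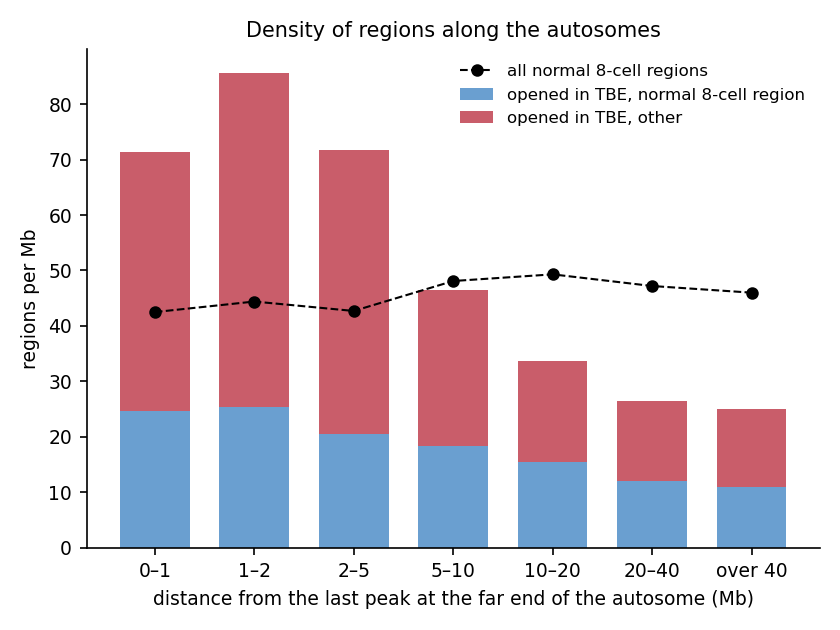
Regions per Mb against distance (Mb) from the last peak at the far end of the 29 autosomes, with bars for regions opened in TBE, divided into normal 8-cell regions (blue) and others (red), and a dashed line for all normal 8-cell regions. Opened regions reach 85.6 per Mb near the end and 25.1 per Mb beyond 40 Mb, while the dashed line stays between 42.5 and 49.3.

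Oocyte sites were also frequent in the last 5 Mb, which held 12.4%, 13.8% and 12.4% of the autosomal peaks of the 3 GV oocyte libraries. Over whole lists the 4-cell TBE libraries had 9.43%, 8.60% and 7.75% there, the 4-cell control libraries 10.3%, 9.01% and 8.98%, and the 8-cell TBE libraries 14.2%, 9.77% and 11.4%. The 8-cell control libraries, at 6.04%, 5.56% and 5.35%, were the lowest of these 4 groups. Among new peaks without a GV oocyte region the last 5 Mb held 14.4%, 9.31% and 10.7% in TBE and 5.07%, 4.64% and 4.55% in control (two-sided exact permutation test, n = 3 each, p = 0.1). Among new peaks at a GV oocyte region the shares were closer, at 14.5%, 14.1% and 13.5% in TBE and 12.0%, 11.7% and 11.5% in control (n = 3 each, exact permutation test, p = 0.1). The first 5 Mb, at the other end, held 5.01%, 5.55% and 4.94% of 8-cell TBE peaks and 4.91%, 4.91% and 4.73% of 8-cell control peaks.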

How the data were processed

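ATAC-seq peak lists of 30 libraries were used, 3 for each of 10 groups. Per the study's methods and the submitters' processing notes, the authors mapped reads with BWA (0.7.17) to the ARS-UCD1.2 assembly, removed PCR duplicates with PicardTools, used SAMtools (1.7) to drop poor and mitochondrial alignments, and ran MACS2 (2.1.1) for broad peaks, at a q-value cutoff of 0.05 with reads shifted by -100 bp and extended to 200 bp. The methods give these settings for merged replicates at equal depth, whereas the deposited lists are 1 per library and differ in depth, and the same settings were assumed for them. The deposited values per peak are its fold enrichment, a ratio over the local background, and its −log10 p and −log10 q, averaged over the peak. Read counts were not used here, so depth is known only through the background level. It was solved from narrow peaks, up to 220 bp wide, whose fold enrichment and −log10 p both match a whole number of tags. The sources used here do not say what the run label in the peak names of 8-cell TBE replicate 3 means, so that list may come from 1 sequencing run.

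Python 3 scripts (numpy, pandas, scipy) merged peaks that share at least 1 bp. Regions needed peaks from at least 2 of 3 replicates, opened regions shared no base with a 4-cell TBE region, and normal regions were those of the same rule in control embryos. Libraries were the replicates in exact two-sided permutation tests, with no adjustment over tests, since 3 against 3 cannot pass 0.05. Merging and overlap were checked on simulated intervals (200 trials, 0 mismatches). The members, regions and rules were chosen with earlier results of these data known, and the comparisons by list length, by the pair nearest in depth, by oocyte regions and by chromosome ends after values had been seen. Named sites were the tallest by mean fold enrichment in 8-cell TBE among opened regions with a peak in all 3 8-cell TBE and no 4-cell TBE library, 10 with a peak in all 3 and 10 with a peak in no 8-cell control library, and up to 5 lost regions of the reverse rule, of which there were 0. Of the 20 sites, 8 are described. The sites in the text are not assigned to genes, and gene lists were not examined, since no annotation of ARS-UCD1.2 was used here. Alternatives changed the peak threshold, list length, overlap, replicates needed, chromosomes and libraries.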

Additional observations from a re-analysis of the deposited data

How the results depend on the processing

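The 110 alternatives run covered tested differences and also untested counts or shares, which have no sign to change. Of these alternatives, 0 changed the sign of a tested difference and 24 moved an untested count or share. Most of the exact tests cannot reach 0.05 in this design, so their side of the threshold says nothing about stability. The number of opened regions was 26495 where peaks needed a −log10 q of 3 or more, 33233 with a fold enrichment of at least 3, 1784 with the top 3094 peaks of each list, 242985 with regions from any replicate and 32231 with regions from all 3. Leaving out 1 library gave 30299 (without 8-cell TBE replicate 2) to 81082, with 37257 without 8-cell TBE replicate 1. Lost regions under the same 5 settings numbered 44, 333, 832, 7037 and 31, and 7 (without 4-cell TBE replicate 1) to 352 (without 8-cell TBE replicate 2) with 1 library left out, with 33 without 4-cell TBE replicate 2 and 329 without 8-cell TBE replicate 1. The percent of opened regions that were normal was 59.9, 57.6, 15.2, 26.1 and 59.6 under those settings, where normal regions too were rebuilt, 27.9 with an overlap of at least 50%, and 42.7 to 66.1 with 1 library left out, with 58.7 without 8-cell TBE replicate 1, so that 5 of these settings put it above 50%. The cause of these shifts was not tested.

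The difference in the normal share of new peaks between TBE and held-out control stayed negative, from -42.5 points with regions from any replicate to -15.6 points for peaks at a −log10 q of 3 or more, where the groups overlapped (exact permutation test, p = 0.3). With 1 library left out it was -33.3 to -20.4 points. The gap between oocyte and other regions, larger by 47.8 points in TBE, was 34.0 with a fold enrichment of at least 3 and 44.1 to 51.6 without 1 TBE library. The ratio of covered lengths was 2.09 for equal numbers of top peaks, 37.0 at a −log10 q of 3 or more, and 13.9 (without 8-cell TBE replicate 2) to 52.7 (without 4-cell TBE replicate 1) with 1 library left out. The ratio of peak numbers was 8.98 (without 4-cell TBE replicate 3) to 29 (without 4-cell TBE replicate 1) with 1 library left out. It was 6.60 with a fold enrichment of at least 3 and 22.9 at a −log10 q of 3 or more. New minus kept peaks at normal regions ran from -67.6 to -25.2 points over all alternatives. The difference between the TBE and control steps was 0.939 to 2.86 on the log2 scale with 1 library left out, 0.458 for equal numbers of top peaks, 0.769 at a fold enrichment of 3 or more and 0.877 at a −log10 q of 3 or more.

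Replicate numbers were shared between groups, and embryos of a collection were divided between α-amanitin and control, but no label says that a number marks a collection. Same-numbered libraries had correlations of deviations of 0.00, 0.01 and -0.04 between 4-cell and 8-cell TBE and 0.02, 0.01 and 0.07 between 8-cell TBE and control, and of 0.15, 0.01 and 0.15 between 4-cell TBE and control, so not every pair passed 0.1 and the numbers were not used as pairs. With the replicate block the values were 23.7, 13.9, -27.1 and 47.8 at p = 0.25 in exact permutation tests, the smallest possible, and 1.71 at p = 0.281 for the difference between steps, where no result had passed 0.05 without the block either. 4-cell TBE replicates 2 and 3 had the lowest background levels of the 12 libraries, and the part of depth in what their lists lack was not tested.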
